A study of Mus musculus with 32 samples.

Results

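The transcript model uc007jtp.2, 3326 nt long, is 1 of the 51884 mouse transcript models quantified in each of 32 RNA libraries from primary cortical neurons. It was chosen by its measured excess with the PSD95 construct, so every PSD95 to Pan difference below is a description of how it was selected and carries no test. None of the 8 reference files searched held the identifier (0 entries), and the deposited tables do not pair it with a symbol. It is therefore named by its identifier, with no gene, position, sequence or function given to it.

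Neurons were cultured from the cortex of CD-1 mouse embryos and transduced with a doxycycline-inducible lentivirus carrying the biotin ligase TurboID, which biotinylates proteins close to it. In the PSD95 groups the ligase was joined to PSD95, the Dlg4 product that scaffolds the postsynaptic density. That construct was flanked by the 5′ and 3′ UTRs of PSD95, and its PSD95 part had been amplified from rat. The Pan groups expressed Pan-TurboID, which lacked this localization signal. All cultures received cycloheximide for 2 minutes and then biotin for 30 minutes. To depolarize neurons, activity was blocked by tetrodotoxin plus DL-AP5 over 2 hours, KCl was added to 55 mM for the next 1 hour, and a recovery of 30 minutes followed. Resting cultures had no KCl. RNA crosslinked by UV light to the labelled proteins was captured with streptavidin (pulldown), and 15% of each lysate was kept as input. Depolarized PSD95, depolarized Pan, resting PSD95 and resting Pan neurons each gave 4 pulldowns and 4 inputs, numbered replicates 1 to 4 by title.

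PSD95 organizes glutamate receptors and signalling proteins at excitatory synapses, and some mRNAs are carried into dendrites and translated there. A tagged PSD95 can therefore place biotin on proteins near the synapse, and crosslinked RNA comes down with them. A pulldown reports RNA near the enzyme, whereas an input reports RNA of the whole lysate. An RNA that is simply more abundant in one culture is higher in both fractions, so the inputs are the background against which the pulldowns of uc007jtp.2 are read. The PSD95 virus also brings its own RNA. Whether reads from it were counted under uc007jtp.2 was not tested.

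Libraries held 2949123 to 19323465 assigned reads. A single transcript, uc009sgd.1 (3881 nt), took 2.08% to 84.8% of them, and over 50% in 6 libraries: replicate 3 of both PSD95 pulldowns, of the resting Pan pulldown and of both depolarized inputs, and replicate 4 of the depolarized Pan input. Without the 3 most abundant transcripts, 612945 to 17632500 reads remained. Levels are given as CPM, the reads of a transcript when all assigned reads of a library are scaled to 1000000, and again with the 3 most abundant transcripts left out of the total or with TMM scaling, a factor from the bulk of transcripts. Comparisons across transcripts used limma with replicate number as a block. Its differences are log2 values ± SE, with Benjamini-Hochberg adjusted p-values.

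In pulldowns, uc007jtp.2 stood several-fold higher with PSD95 than with Pan in both states. Depolarized pulldowns held 1249, 2634, 1150 and 1953 CPM with PSD95 (replicates 1 to 4), against 256, 139, 142 and 297 CPM with Pan. Resting pulldowns held 1890, 2368, 949 and 867 CPM with PSD95, against 210, 162, 66.7 and 249 CPM with Pan. The lowest PSD95 library lay above the highest Pan library in both states, a separation in this direction shown by 0.372% of 34696 transcripts in depolarized and 0.179% in resting pulldowns. Because these are bulk RNA libraries, more neurons that carry the transcript and more of it per neuron cannot be told apart.

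The inputs, which had not been through streptavidin, also held more of it with PSD95. Depolarized inputs held 967, 1107, 370 and 304 CPM with PSD95, against 400, 207, 126 and 31.3 CPM with Pan. Resting inputs held 1552, 1298, 1577 and 976 CPM with PSD95, against 258, 154, 134 and 228 CPM with Pan. The resting groups did not overlap, whereas in depolarized inputs Pan replicate 1 lay above PSD95 replicates 3 and 4. Such a separation was present for 0.991% of transcripts in depolarized and 0.767% in resting inputs. Within each replicate number, PSD95 was above Pan in 4 of 4 pairs in all 4 combinations of fraction and state.

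With the 3 most abundant transcripts left out of the totals, all values were higher. Depolarized pulldowns then held 1292, 2753, 4897 and 2269 CPM with PSD95, against 276, 178, 296 and 324 CPM with Pan. Resting pulldowns held 2068, 2511, 4426 and 1756 CPM with PSD95, against 221, 167, 190 and 272 CPM with Pan. Both pulldown comparisons again had no overlap, and replicate 3 became the highest PSD95 library in place of replicate 2. Depolarized inputs held 1102, 1588, 2733 and 407 CPM with PSD95, against 456, 259, 391 and 351 CPM with Pan. Resting inputs held 1786, 1896, 2621 and 1262 CPM with PSD95, against 283, 179, 295 and 352 CPM with Pan. The depolarized inputs still overlapped, now through PSD95 replicate 4 alone, which lay below Pan replicate 1. The coefficient of variation over 16 libraries was 52.3% with PSD95 and 29.3% with Pan on this scale, and 48.8% with PSD95 and 47.7% with Pan on all assigned reads.

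**Figure D1:**
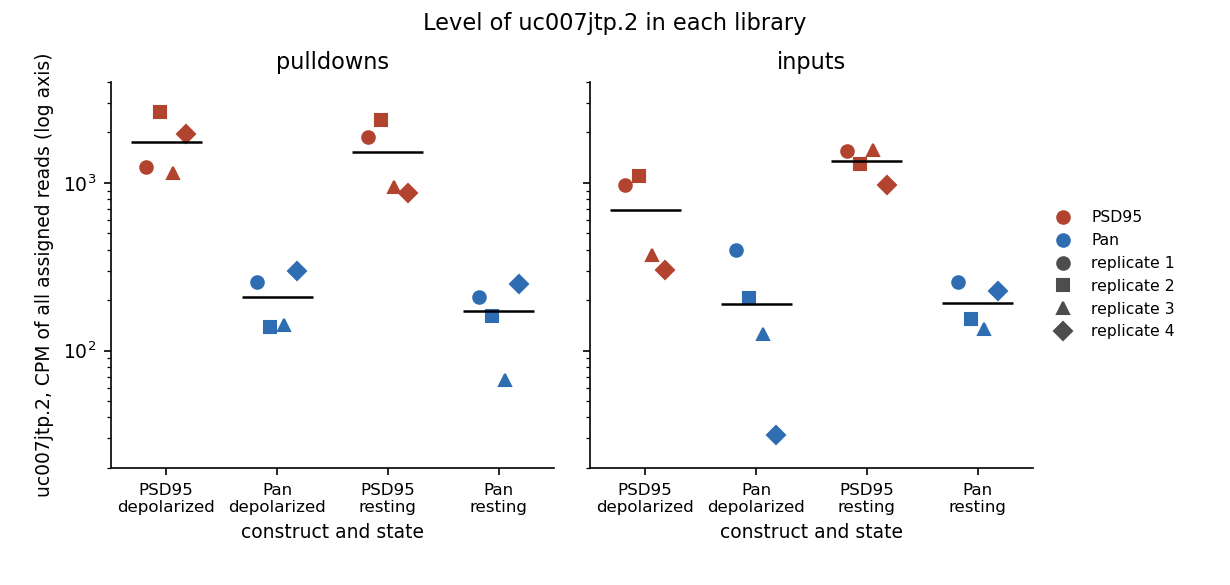
CPM of uc007jtp.2 (log axis) in each of the 32 libraries, pulldowns left and inputs right. Points are libraries, their shape is the replicate number and the black line is the mean of 4. All PSD95 points lie at or above 304 CPM and all Pan points at or below 400 CPM, and the groups overlap only in depolarized inputs.

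Over 16 PSD95 libraries the transcript took 0.0304% to 0.263% of reads and ranked 7 to 273 by level, with 3249 reads or more in all but the resting pulldown of replicate 3, where 2798 were assigned. Over 16 Pan libraries it took 0.00313% to 0.0400% of reads and ranked 246 to 1060. At the top, the depolarized PSD95 pulldown of replicate 2 had a share of 0.263% (95% exact Clopper-Pearson interval 0.260% to 0.266%). At the bottom, the depolarized Pan input of replicate 4 had 0.00313% (0.00272% to 0.00357%) from 215 reads, in the library where uc009sgd.1 took 84.8%. These intervals cover counting error only and are far narrower than the spread between replicates.

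Ordered by group mean, the levels were 1746 ± 691 CPM in depolarized PSD95 pulldowns, 1519 ± 732 in resting PSD95 pulldowns, 1351 ± 280 in resting PSD95 inputs and 687 ± 409 in depolarized PSD95 inputs (SD, n = 4 each). The Pan groups followed at 209 ± 80.4 CPM in depolarized pulldowns, 193 ± 59.0 in resting inputs, 191 ± 157 in depolarized inputs and 172 ± 78.5 in resting pulldowns. Neighbours in this order overlapped in their ranges, except depolarized PSD95 inputs and depolarized Pan pulldowns, where the lowest PSD95 value of 304 CPM stood just above the highest Pan value of 297 CPM. The 4 Pan means lay within 36.8 CPM of each other.

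The fitted PSD95 minus Pan difference was 2.88 ± 0.50 in depolarized pulldowns, 3.44 ± 0.42 in resting pulldowns, 1.46 ± 0.39 in depolarized inputs and 2.88 ± 0.36 in resting inputs (log2 ± SE). In these fits limma called 0.129% of transcripts in depolarized and 0.00922% in resting pulldowns, and 0.0359% in the inputs of either state. The excess was above 0 under every alternative fit and scaling tried. Among the 1339 transcripts with a mean of at least 100 CPM in pulldowns, a minimum chosen after the values were seen, uc007jtp.2 had the largest fitted difference in both states. Among 1228 such transcripts in inputs it was the largest at rest and 2nd after depolarization. With a minimum of 10 CPM it ranked 141 in depolarized and 68 in resting pulldowns of 12582 transcripts, and 461 in depolarized and 70 in resting inputs of 10564. The next below it in resting pulldowns was uc009mzg.1 (3282 nt), with a difference of 3.39 and only 14.6 ± 13.4 CPM with PSD95, against 4.72 ± 8.48 CPM with Pan. By size of the fitted difference, the label of a transcript highest with PSD95 thus held for transcripts of at least 100 CPM in 3 of the 4 comparisons. It held for none of the 4 once transcripts of 10 CPM were counted. Both statements describe values that the choice had used.

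Whether the PSD95 excess was the same in pulldowns and inputs was examined within each replicate number. On TMM-scaled CPM, the log2 excess in depolarized neurons was 2.17, 3.91, 4.01 and 2.71 in pulldowns, against 1.14, 2.57, 2.79 and 0.29 in inputs. In resting neurons it was 3.28, 3.95, 4.40 and 2.61 in pulldowns, against 2.71, 3.43, 3.12 and 1.94 in inputs. After depolarization the excess was larger in the pulldown in 4 of 4 replicates, by 1.50 ± 0.62 (SD, n = 4). With the 3 most abundant transcripts left out of the totals it was also larger in 4 of 4, by 1.53 ± 0.73. Of the 10360 transcripts with reads in every library, 4.06% showed 4 of 4 with TMM scaling and 4.52% with the other, and 2.61% had a higher mean difference than uc007jtp.2. The depolarized and the resting values are both built from differences that the choice had used, so they are a description. At rest the excess was larger in the pulldown in 4 of 4 replicates, by 0.76 ± 0.35 with TMM scaling and by 0.83 ± 0.40 with the other.

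CPM of all assigned reads gave a less even picture. The depolarized excess was then larger in the pulldown in 3 of 4 replicates, by 0.93 ± 1.05 on average (SD, n = 4), and at least 3 of 4 was reached by 20.2% of transcripts. The resting excess was larger in 3 of 4 replicates, by 0.34 ± 0.47. The exception was replicate 4 in both states, where uc009sgd.1 took 84.8% of the depolarized Pan input and 46.6% of the resting PSD95 pulldown. The part of this transcript alone was not tested.

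**Figure D2:**
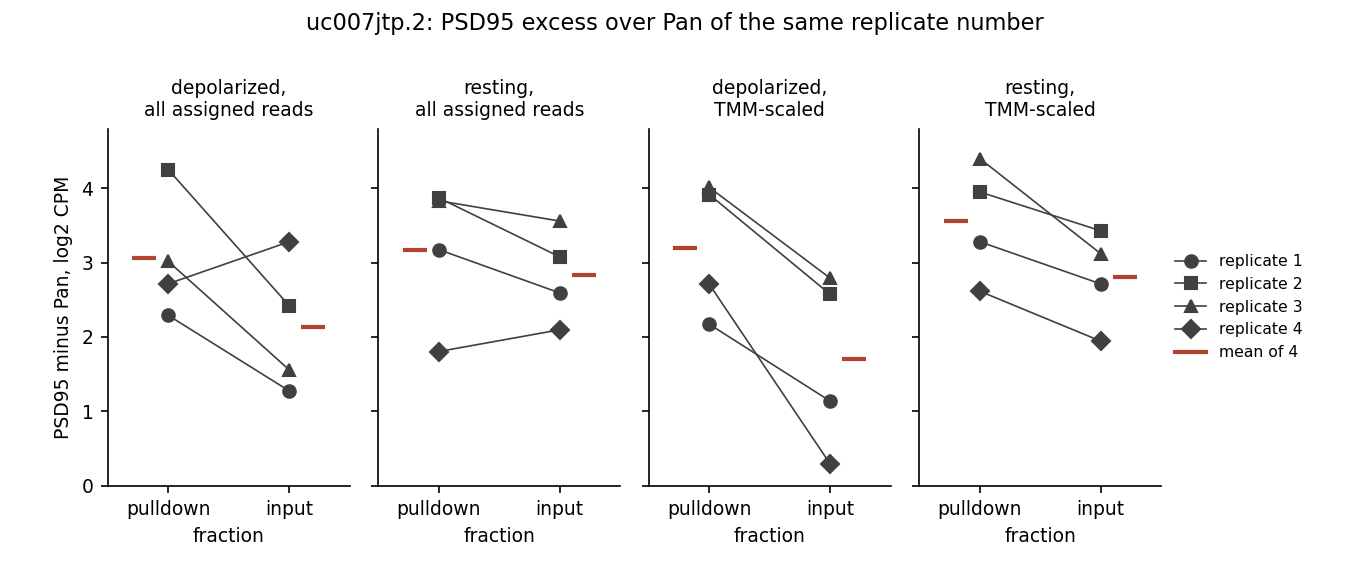
Log2 PSD95 minus Pan of uc007jtp.2 within each replicate number, pulldown left and input right in each panel. Lines join the fractions of a replicate and red bars are means of 4. The excess lies above 0 throughout, and every line falls towards the input with TMM scaling, whereas replicate 4 runs the other way on all assigned reads.

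Fitted values of this difference are given as a description only. Both of its parts were PSD95 to Pan differences that the choice had used, so no p-value is given for uc007jtp.2. For depolarized neurons limma gave a difference of excess of 0.85 ± 1.54 (95% interval -2.32 to 4.03). That interval holds both equality and a difference of several-fold. No transcript passed in that comparison (0.00% of 34696), although 2248 had an unadjusted p under 0.05, edgeR called 1 and DESeq2 561. On simulated counts for the same comparison DESeq2 called 491 unchanged transcripts, against 0 with limma and with edgeR. For uc007jtp.2, edgeR gave 1.40 and DESeq2 1.53. For resting neurons, where the choice had likewise used the contrast, the fitted value was 0.43 ± 1.35, with 0.00576% of transcripts called. An exact two-sided sign-flip test over 4 replicates cannot give a p-value below 0.125, so none is read here.

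Split by construct, the lysates moved in opposite directions on both adjusted scales. With TMM scaling, PSD95 pulldowns exceeded their own inputs by 0.03, 0.68, 0.62 and 2.21 log2 units after depolarization and by 0.06, 0.31, 0.53 and 0.31 at rest. Pan pulldowns minus their own inputs gave -1.003, -0.66, -0.60 and -0.21 after depolarization and -0.51, -0.22, -0.75 and -0.36 at rest. All 8 PSD95 lysates were thus above 0 and all 8 Pan lysates below it, with PSD95 replicate 1 almost at 0 in both states. The share of all transcripts with this split was not counted, so it is not read as particular to uc007jtp.2. The same held with the 3 most abundant transcripts left out, where PSD95 lysates spanned 0.21 to 2.48 and Pan lysates -0.72 to -0.10.

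On CPM of all assigned reads the constructs did not separate, with 6 of 8 PSD95 lysates and 4 of 8 Pan lysates above 0. The median transcript moved by -0.22 in PSD95 and -0.13 in Pan lysates with TMM scaling and by 0.10 and 0.26 on all assigned reads. The mean of uc007jtp.2 in PSD95 lysates was 0.59 ± 0.50 with TMM scaling and 0.77 ± 0.45 on all assigned reads (SD, n = 4 replicates, states averaged). In Pan lysates it was -0.54 ± 0.22 with TMM scaling and 0.14 ± 1.04 on all assigned reads, where single lysates ran from -1.01 to 3.25 and the distance to the median transcript was within that spread.

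**Figure D3:**
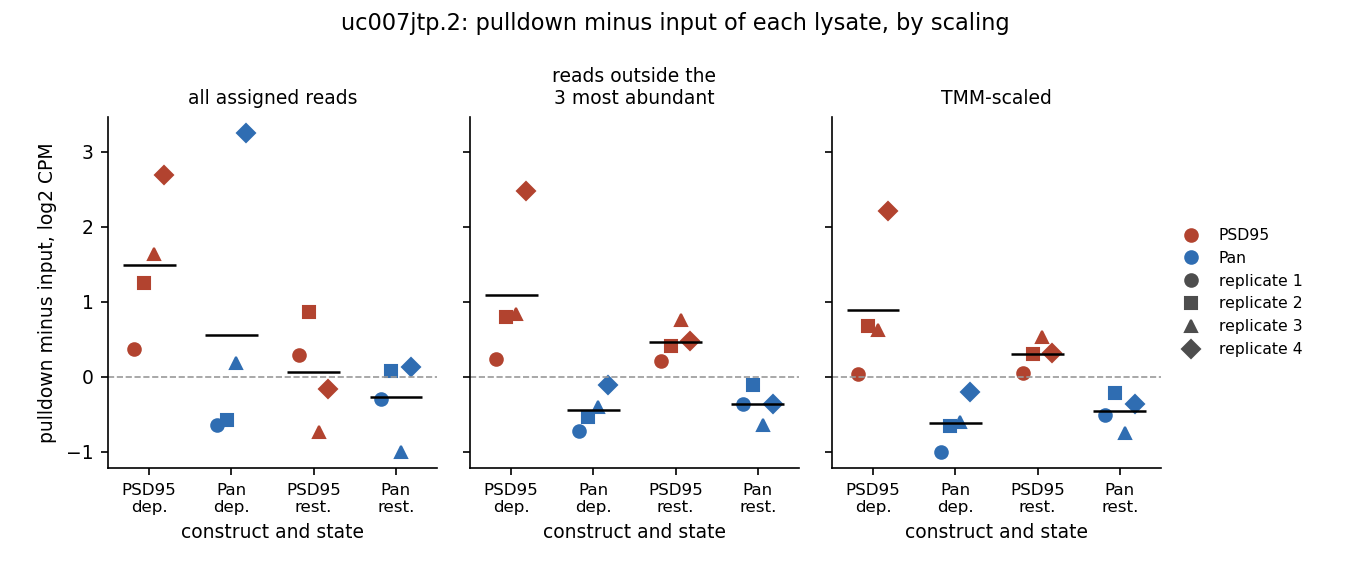
Log2 pulldown minus input of uc007jtp.2 for each of 16 lysates, with the library total taken in 3 ways. Bars are means of 4 and the dashed line is 0. PSD95 points lie above 0 and Pan points below it in the middle and right panels, and the constructs overlap in the left panel.

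By limma, no pulldown to input difference passed. It was 0.37 ± 0.24 in depolarized PSD95 neurons (adjusted p = 0.361, 12.8% of transcripts called) and 0.30 ± 0.21 in resting PSD95 neurons (adjusted p = 0.448, 7.25% called). In Pan neurons it was -0.48 ± 1.52 after depolarization (adjusted p = 0.895, 8.04% called) and -0.14 ± 1.34 at rest (adjusted p = 0.967, 9.45% called). The depolarized PSD95 value moved with both replicates and filter. It was 1.66 without replicate 1 (limma adjusted p = 0.000115) and 0.073 without replicate 4. With all replicates it was 1.04 at a minimum mean of 5 CPM (adjusted p = 0.0132) and 1.18 with no filter (adjusted p = 1.1e-07).

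In the inputs of PSD95 neurons the main fit called a lower level after depolarization, but several alternatives did not. Depolarized minus resting was -0.68, -0.23, -2.09 and -1.68 on log2 CPM of all assigned reads, lower in 4 of 4 replicates. The median transcript moved by -0.15 on that scale, and the share of transcripts lower in 4 of 4 was not counted. The limma difference was -0.94 ± 0.15 (adjusted p = 0.00823), in a comparison with 2.00% of 27887 transcripts called in either direction. That SE does not show the spread between replicates, which differed by -0.67 ± 0.77 with TMM scaling (mean ± SD, n = 4). This was the one call among the tested differences of uc007jtp.2. It was lost without replicate 1 (-1.06, adjusted p = 0.831) and without replicate 2 (-1.03, adjusted p = 0.166), and with edgeR (-0.50, adjusted p = 1.00) and DESeq2 (-0.48, adjusted p = 0.734). In replicate 3, uc009sgd.1 took 78.9% of reads in the depolarized and 28.0% in the resting input, and there the difference was 0.13 with TMM scaling, leaving 3 of 4 replicates lower, as were at least 3 of 4 for 36.9% of 10360 transcripts.

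PSD95 pulldowns gave no such call and no single direction. Depolarized minus resting was -0.60, 0.15, 0.28 and 1.17 on log2 CPM, above 0 in 3 of 4 replicates, with a mean of 0.25. On that scale, CPM of all assigned reads, the median transcript moved by 0.28. The share of transcripts above 0 in at least 3 of 4 replicates was not counted. The rise is therefore not read as particular to the chosen transcript. Its limma difference had the opposite sign, -0.47 ± 0.15 (adjusted p = 0.0776, 7.96% of transcripts called), and was 0.18 without replicate 1 (adjusted p = 0.786). The direction of this comparison thus changed with the scaling as well as with replicate 1. The mean over replicates was -0.083 with TMM scaling and -0.0074 with the 3 most abundant transcripts left out. Without quality weights of libraries the limma difference was -0.42, and on log2(TPM + 1) it was 0.70 with all replicates.

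In Pan neurons the state left no difference that passed. Pan pulldowns gave 0.29, -0.23, 1.09 and 0.26 on log2 CPM and 0.09 ± 0.54 by limma (adjusted p = 0.952, 6.20% of transcripts called). With TMM scaling 4 of 4 replicates were above 0, by 0.28 on average. Pan inputs gave 0.63, 0.43, -0.09 and -2.87 on log2 CPM and 0.47 ± 0.44 by limma (adjusted p = 0.649, 3.10% called). The -2.87 came from replicate 4, where uc009sgd.1 took 84.8% of the depolarized and 22.5% of the resting input, and the value was -0.01 with TMM scaling.

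**Figure D4:**
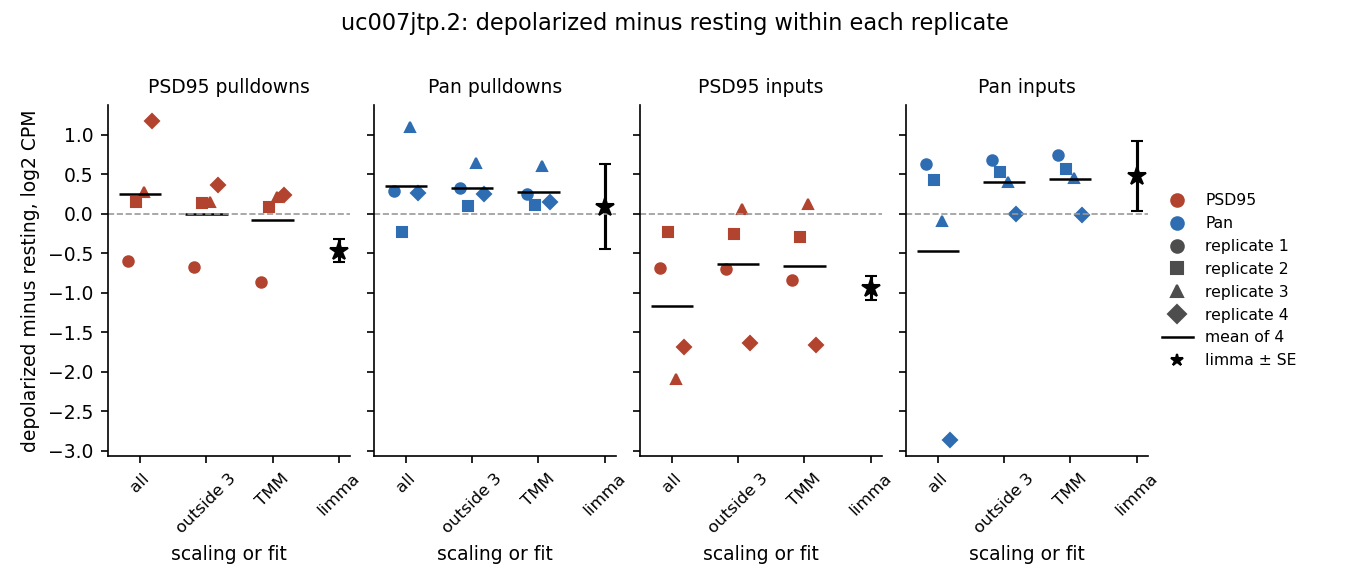
Log2 depolarized minus resting of uc007jtp.2 within each replicate number, for 3 ways of scaling, beside the limma value ± SE (star). PSD95 inputs lie mostly below 0, whereas PSD95 pulldowns have replicate 1 below 0 and 3 replicates above it.

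Whether the level in an input went with the level in the pulldown of the same lysate depended on the scaling. On CPM of all assigned reads no relation passed. Across 8 PSD95 lysates Pearson's r was 0.03 (exact permutation p = 0.943) and Spearman's rho -0.02 (exact permutation p = 0.977). Across 8 Pan lysates r was -0.06 (exact permutation p = 0.894) and rho 0.19 (exact permutation p = 0.665). Adjusted over the 2 relations, these exact permutation p-values were 0.943 for both r and 0.977 for both rho. Without the 2 lysates farthest from the median input level, r was 0.15 for PSD95 (exact permutation p = 0.772) and 0.70 for Pan (exact permutation p = 0.0986). With the 3 most abundant transcripts left out, r was 0.57 (exact permutation p = 0.141) and rho 0.76 (exact permutation p = 0.0368) for PSD95, and r was 0.84 (exact permutation p = 0.00536) and rho 0.81 (exact permutation p = 0.0218) for Pan. On that scale, without the 2 farthest lysates, r was 0.93 for PSD95 (exact permutation p = 0.0125) and 0.90 for Pan (exact permutation p = 0.0347). Each replicate number holds 2 lysates of a construct, too few for values within replicates. The permutations mixed replicate numbers and states, which the p-values do not allow for. Only the p-values over 8 lysates on all assigned reads were adjusted.

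TPM, which is scaled by length and by every transcript in the library, kept the order of the constructs. PSD95 libraries ran from 30.1 to 1281 TPM with a median of 246, and Pan libraries from 2.84 to 125 TPM with a median of 48.0. The ranges overlapped more than in CPM.

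No transcript followed uc007jtp.2 closely. Of 28895 transcripts with a mean of at least 1 CPM, 0 had a Pearson r above 0.8 with it over the 32 libraries on log2 CPM. The most alike were uc007kmj.1 (1393 nt, mean 1.35 CPM, r = 0.70) and uc007cwh.1 (9866 nt, mean 7.84 CPM, r = 0.68). Within the 16 PSD95 libraries those r were 0.43 and 0.39, and within the 16 Pan libraries 0.69 and 0.59. These are descriptions, since the libraries share construct, replicate number and depth.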

How the data were processed

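Processed tables of 32 libraries were used. The authors quantified reads with salmon against mm10 UCSC knownGene transcripts, per the study's methods, with its version not given in the sources used here. Deposited files hold estimated counts, in which reads matching several transcripts are divided, TPM values scaled by the authors' tool, and transcript and effective lengths. DESeq and limma appear in the submitters' processing notes as well. Estimated counts of uc007jtp.2 were within 0.001 of a whole number in 4 libraries, so most hold divided reads; they were rounded for tests.

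Groups follow the titles. Descriptions number replicates otherwise and name the opposite state for title replicate 2, which was tried as an alternative. No pair of files was identical (0 pairs). The member and lists were chosen with earlier results of these data known. Cell type markers and gene lists were not run, since identifiers carry no symbols. Named transcripts were uc007jtp.2, the 2 most alike in log2 CPM, the next below it by PSD95 minus Pan in resting pulldowns with a mean of at least 10 CPM, and the one with the largest share of reads.

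The test was limma 3.58.1 (voomWithQualityWeights, TMM and filterByExpr of edgeR 4.0.16, R 4.3.3), with Benjamini-Hochberg adjustment over all transcripts at 0.05. Pulldowns, inputs, or all 32 libraries for comparisons across fractions, were fitted together, with the replicate block, because the study processed both states of a biological replicate together. Same-numbered residuals correlated with r of -0.01 to 0.24 over 12 group pairs, against -0.18 to 0.12 for different numbers. Correlations and sign-flip tests are exact and two-sided (scipy 1.17.1, Python 3.11.15). Alternatives included DESeq2 1.42.0 and log2(TPM + 1) with limma. On simulated counts for the state comparison in PSD95 pulldowns (29900 transcripts), limma found 1 of 100 simulated 2-fold changes and 37 of 100 simulated 8-fold changes. For the difference of excess after depolarization (32561 transcripts) it found 0 and 33 of 100. Figures used matplotlib 3.10.9.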

Additional observations from a re-analysis of the deposited data

Results flagged for a closer look

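Pulldown minus input of uc007jtp.2 had opposite signs in the lysates of the PSD95 and Pan constructs. With reads of the 3 most abundant transcripts left out of the totals, PSD95 minus Pan in this log2 difference was 1.53 after depolarization and 0.83 at rest. With TMM scaling it was 1.50 after depolarization and 0.76 at rest. In each of these 4 cases 4 of 4 PSD95 lysates lay above 0 and 4 of 4 Pan lysates below it. The share of all transcripts with such signs was not counted. By limma the difference itself was 0.85 ± 1.54 in depolarized and 0.43 ± 1.35 in resting neurons, and no test of it is given. The choice of the transcript had used the PSD95 to Pan differences of both states, so neither value is independent of it. On CPM of all assigned reads the signs were mixed in both constructs. No single library stood apart from the other 3 of its group in the level of uc007jtp.2, in 16 checks over 8 groups and 2 scalings.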

How the results depend on the processing

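PSD95 minus Pan stayed above 0 throughout; only the depolarized input value left the spread of replicates, at 2.41 on log2(TPM + 1). The difference of excess after depolarization kept its sign (0.56 to 1.70), and at rest it was -0.22 on log2(TPM + 1). The fall in PSD95 inputs kept its sign and was no longer called with edgeR (-0.50), DESeq2 (-0.48), a mean of at least 5 CPM (-0.70), log2(TPM + 1) (-1.35), the described states of replicate 2 (-0.93) or all libraries in 1 model (-0.91; adjusted p over alternatives up to 1.00). Without the replicate block that difference was -0.93 (adjusted p = 0.324); the block changed no other call. Means of replicate ratios, added after seeing the data, were -1.17 on all assigned reads, -0.63 without the 3 most abundant transcripts and -0.67 with TMM scaling, and their exact test cannot pass with 4 replicates. Leaving out single replicates gave -1.06 to -0.67.

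In PSD95 pulldowns the state difference was called with RLE size factors (-0.53), totals without the 3 most abundant (-0.44), no filter (-0.84) and all libraries in 1 model (-0.84). It was above 0 on log2(TPM + 1) (0.70) and as the mean of ratios on all assigned reads (0.25). Leaving out replicates gave -0.56 to 0.18. In Pan inputs the state difference was -0.93 on log2(TPM + 1) and -0.47 as the mean of ratios on all assigned reads. Pulldown minus input in depolarized PSD95 neurons was called with no filter (1.18) and a mean of at least 5 CPM (1.04), and ran from 0.073 to 1.66 without single replicates. Its Pan values turned positive at rest with totals without the 3 most abundant (0.0078) and log2(TPM + 1) (0.31). After depolarization they did so on log2(TPM + 1) (1.29) and as the mean of ratios on all assigned reads (0.55). The Pan correlation was 0.84 without the 3 most abundant and 0.040 on log2(TPM + 1); without single replicates it ran from -0.38 to 0.76, and for PSD95 from -0.29 to 0.29. The causes were not tested.

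Leaving out the 6 libraries with over 50% of reads on uc009sgd.1, a choice made after seeing the data, kept every direction and call of uc007jtp.2. Counts of called transcripts over all alternatives ran from 0 to 2893 (2590 in the text) in PSD95 pulldowns and 0 to 1058 (558) in PSD95 inputs between states, 0 to 2489 (2018) and 0 to 1771 (865) with Pan, 641 to 4433 (4433) and 0 to 3268 (2515) for PSD95 pulldown minus input after depolarization and at rest, 258 to 3983 (2791) and 0 to 3841 (3278) with Pan, and 0 to 561 (0) for the difference of excess. Totals outside the 3 most abundant of as few as 612945 reads limit precision, and 4 replicates limit the tests.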
